A study of Homo sapiens with 2 samples.

Results

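A set of 10 surface, enzyme and chromatin genes used to mark tumour-initiating cells of the liver were followed in PLC/PRF/5 cells, a long-established line from a human hepatocellular carcinoma. They are PROM1 (CD133), CD24, CD44, THY1 (CD90), EPCAM, ANPEP (CD13), ICAM1 (CD54), LGR5, ALDH1A1 and BMI1, and their probe sets were taken wherever the array annotation gave 1 of these symbols and no other. That rule found 33 probe sets of 9 of the 10 genes, out of 41091 probe sets of 19775 genes on the array. BMI1 had 0 such probe sets, because its 1 probe set is also annotated to a readthrough gene, so no BMI1 value is given.

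One culture was chemoresistant hepatospheres, grown as spheroids under cisplatin and doxorubicin. The other culture was differentiated cells, made by giving spheroids fetal bovine serum and letting them attach. Each was hybridised to 1 Affymetrix U133 array, so there was no replicate, no test and no error on any difference. Growth form, serum, attachment and drug selection, which the labels name for the hepatospheres, cannot be told apart. The labels leave unsaid if the differentiated cells had also seen drug as spheroids. Values are MAS5 signals, in arbitrary linear units. A floor of 84.1, the higher of the median signals of the arrays (84.1 in hepatospheres, 70.6 in differentiated cells), separated measured from unmeasured probe sets, and a fold against a signal below it is given as "at least".

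Tumour-initiating cells are the fraction of a tumour that can regrow it in a new host, and in liver cancer they are sorted by surface proteins or by aldehyde dehydrogenase activity. CD44, ICAM1, THY1 and EPCAM are adhesion molecules. CD24 is a small mucin-like protein held by a lipid anchor, PROM1 a membrane protein of cell protrusions and ANPEP a peptidase on the cell surface. LGR5 is a receptor for R-spondins that strengthens Wnt signals, ALDH1A1 oxidises retinal to retinoic acid, and BMI1 is a polycomb repressor of transcription. Growth as non-adherent spheres is a common way to enrich such cells in culture.

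The 6 markers that could be measured all lay above 0, by differing amounts, though for THY1 the floor fixed the direction. CD24, CD44, ANPEP and ICAM1 read between 2.10-fold and 2.37-fold higher in hepatospheres on their brightest probe sets, with the scaling the arrays were deposited with. ALDH1A1 and THY1 lay within 2-fold, 0 of the 10 markers was 2-fold lower, and PROM1, EPCAM and LGR5 were below the floor on both arrays. These 4 higher genes stand beside 12.5% of all 12766 measured genes that were at least 2-fold higher, and 8.83% that were at least 2-fold lower. At the level of probe sets 20 of 33 reached the floor, 15 of them at least 2-fold higher and 0 lower. Of all 23825 measured probe sets with 1 gene symbol, 11.6% were higher and 9.59% lower. Probe sets of 1 gene are not independent readings, and most of the 15 belong to CD24 and CD44. Outside these 2 genes 7 probe sets were measured, 3 of them at least 2-fold higher. Of the 9 genes with a probe set 6 reached the floor. THY1 did so only in hepatospheres, so its difference could not have come out below 0. The median difference of these 6 genes was 1.07 on the log2 scale, beside 0.05 over all measured genes. In such bulk RNA, more cells carrying a marker and more marker RNA per cell cannot be told apart.

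All 4 calls lay close to the 2-fold line, which is 1 on the log2 scale. Dividing each array by its median left CD24 at 0.96, ANPEP at 0.99, and CD44 and ICAM1 at 0.82 each, so that 0 of the 4 were called. Scaling to the spiked poly(A) control RNAs left 0 calls as well and turned ALDH1A1 to -0.61 and THY1 to -0.15. The 24 poly(A) control probe sets averaged 2.07-fold higher in hepatospheres, and that scaling put the median of all measured genes at -0.94. Relative to the all-gene median of each scaling, over the deposited and 4 alternative scalings, CD24 stood between 1.08 and 1.17, ANPEP between 1.14 and 1.28, ICAM1 between 0.97 and 1.11, CD44 between 0.97 and 1.03, ALDH1A1 between 0.33 and 0.39 and THY1 between 0.22 and 0.79. Each direction below is therefore one against most other genes, not against a fixed amount of control RNA. The ratio of 3' to 5' signal of ACTB, a measure of RNA integrity, was 2.64 in hepatospheres and 1.48 in differentiated cells, that of GAPDH was 1.04 in hepatospheres and 0.99 in differentiated cells, and their part in the marker differences was not tested.

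**Figure D1:**
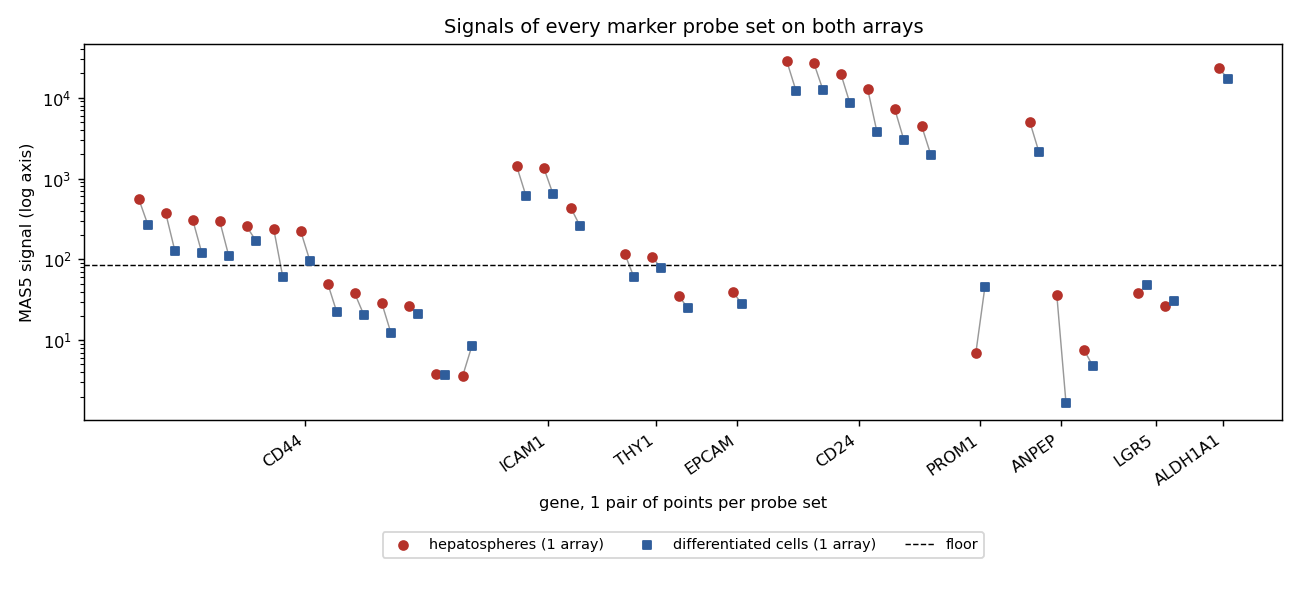
MAS5 signal on a log axis for all 33 probe sets of 9 markers, with hepatospheres as circles, differentiated cells as squares and the floor of 84.1 as a dashed line. With the deposited scaling, every pair of CD24, ICAM1 and ALDH1A1 points lies above the line and has hepatospheres higher, whereas PROM1, EPCAM and LGR5 lie below it; under scaling to the poly(A) controls ALDH1A1, THY1, 1 probe set of CD44 and 1 of ICAM1 turn lower.

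The regions just upstream of the 4 genes that read higher are shown so that their sequences can be compared. Which annotated start these cells used was not tested. Each is the 250 bases before the annotated start, and for CD24 and ANPEP, which have 3 and 2 annotated starts, the most upstream one, from RefSeq on GRCh38.p14. CD44 is chr11:35138921-35139170 on the plus strand, ICAM1 chr19:10270870-10271119 on the plus strand, CD24 chr6:106975628-106975877 on the minus strand and ANPEP chr15:89814853-89815102 on the minus strand. Capitals mark matches, on either strand, to 7 motifs: NF-kB (GGAAATTCC), AP-1 (TGANTCA), the TATA box (TATAAA), the CCAAT box (CCAAT), the GC box (GGGCGG), TCF (CTTTGAT) and the hypoxia response core (ACGTG).
CD44: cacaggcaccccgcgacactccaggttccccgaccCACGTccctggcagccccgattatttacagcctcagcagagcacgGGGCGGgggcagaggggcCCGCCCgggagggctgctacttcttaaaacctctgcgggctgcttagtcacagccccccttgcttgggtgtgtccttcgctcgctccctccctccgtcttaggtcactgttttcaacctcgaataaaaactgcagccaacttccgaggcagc
ICAM1: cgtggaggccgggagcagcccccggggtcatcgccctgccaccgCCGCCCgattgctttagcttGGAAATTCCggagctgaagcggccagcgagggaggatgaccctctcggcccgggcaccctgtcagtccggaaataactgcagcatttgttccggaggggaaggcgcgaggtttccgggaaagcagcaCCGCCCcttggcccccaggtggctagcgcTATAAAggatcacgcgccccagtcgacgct
CD24: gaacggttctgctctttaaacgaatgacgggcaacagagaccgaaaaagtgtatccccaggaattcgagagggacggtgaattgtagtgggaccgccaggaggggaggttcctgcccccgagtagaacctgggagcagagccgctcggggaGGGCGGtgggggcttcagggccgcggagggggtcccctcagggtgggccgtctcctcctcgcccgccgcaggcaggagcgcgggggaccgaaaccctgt
ANPEP: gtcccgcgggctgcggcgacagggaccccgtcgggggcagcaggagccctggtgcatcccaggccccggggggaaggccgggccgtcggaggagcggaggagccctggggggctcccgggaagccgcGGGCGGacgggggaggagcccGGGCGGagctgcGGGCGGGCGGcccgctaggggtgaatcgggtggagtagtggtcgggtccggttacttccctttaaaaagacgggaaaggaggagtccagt
The GC box was the motif found in all 4 windows, and it is common, with a match in 42.6% of 35116 promoter windows of the same length. That depends on the start: the windows of the second CD24 start and the second ANPEP start held 0 matches to any of the 7 motifs, and that of the third CD24 start held a GC box and the CCAAT letters. CD44 held 2 GC boxes, ICAM1 2, CD24 1 and ANPEP 4, of which the 2 nearest the start overlap each other. ICAM1 alone of the 4 held the NF-kB letters, 186 bases before its start, and the TATA letters, 30 bases before it. These occur in 0.413% and 10.7% of all windows. Only 1 fixed form of the NF-kB motif was searched, and it is the form known from the ICAM1 promoter, so its match there was set in advance. Other forms were not searched in any window. CD44 held the hypoxia core once, 215 bases before its start, as do 18.5% of windows. AP-1 and TCF letters, present in 6.57% and 2.26% of windows, and CCAAT letters, present in 32% of windows, were not in the 4 windows shown. The windows were rich in G and C, at 62.4% for CD44, 66.0% for ICAM1, 65.6% for CD24 and 74.0% for ANPEP, against a median of 58.0% over all windows. The ALDH1A1 window, upstream of a marker within 2-fold, had 38.4% and held the CCAAT letters. A letter match describes the window and does not show that a factor binds there.

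CD44, the receptor for hyaluronan, had the most probe sets, 13, and 7 of them reached the floor. The brightest, 204489_s_at, read 562 in hepatospheres and 268 in differentiated cells, a 2.10-fold higher signal. It gave the second smallest difference of the 7. Probe set 1557905_s_at read 374 in hepatospheres and 128 in differentiated cells, or 2.93-fold higher. Probe set 204490_s_at read 309 in hepatospheres and 119 in differentiated cells (2.59-fold higher), 209835_x_at 298 in hepatospheres and 109 in differentiated cells (2.74-fold), and 210916_s_at 223 in hepatospheres and 96.2 in differentiated cells (2.32-fold). Probe set 212014_x_at read 239 in hepatospheres and 59.6, below the floor, in differentiated cells, which makes it at least 2.83-fold higher, and 3.999-fold on the deposited signals without a floor. Only 212063_at stayed within 2-fold among the 7, at 255 in hepatospheres and 170 in differentiated cells (1.502-fold). It is also the only measured CD44 probe set whose name does not mark sequence shared with other transcripts (_s_at) or cross-matching (_x_at).

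All 7 measured CD44 probe sets were thus higher in hepatospheres with the deposited scaling, 6 of them by at least 2-fold, and under poly(A) scaling 6 were higher and 212063_at lower. Of the 473 genes with 5 or more measured probe sets, 17.1% had all of them above 0 and 0.634% had all at least 2-fold higher. Of the 7, 212014_x_at had only a bound and could not have come out below 0. All 7 read under 600, and of all measured probe sets that read under 600 on both arrays 10.5% were at least 2-fold higher. The 6 CD44 probe sets below the floor read 3.63 to 50.2 in hepatospheres and 3.65 to 22.1 in differentiated cells. Raising the floor to the 60th percentile of signal left 3 CD44 probe sets at 2-fold.

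ICAM1, the ligand of leukocyte integrins and a standard NF-kB target, had 3 probe sets, all above the floor on both arrays. Probe set 202638_s_at read 1365 in hepatospheres and 648 in differentiated cells, 2.11-fold higher. Probe set 202637_s_at read 1418 in hepatospheres and 614 in differentiated cells, 2.31-fold higher. The third, 215485_s_at, read 436 in hepatospheres and 261 in differentiated cells, 1.67-fold higher. The 3 agreed in direction and lay on either side of the 2-fold line, with a span of 0.46, and under poly(A) scaling 215485_s_at turned to -0.30. Among genes with 2 or more measured probe sets, 31.4% had all of them above 0, 32.6% had all below 0, 4.08% had all at least 2-fold higher, and the median span was 0.59.

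THY1, a small lipid-anchored immunoglobulin protein also carried by fibroblasts and stellate cells, lay at the edge of detection. Probe set 213869_x_at read 108 in hepatospheres and 78.5 in differentiated cells, at least 1.29-fold higher. Probe set 208850_s_at read 118 in hepatospheres and 60.2 in differentiated cells, at least 1.40-fold higher. Probe set 208851_s_at read 35.4 in hepatospheres and 24.8 in differentiated cells, below the floor on both. Both measured probe sets reached the floor in hepatospheres only, so the floor itself fixes their direction. A floor at the 60th percentile removed both, and under poly(A) scaling the one left was lower at -0.15. Fibroblast and stellate cell markers were mostly below the floor too, with 6 of 10 unmeasured, among them PDGFRA, PDGFRB, ACTA2 and COL1A2. Of the other 4 genes 2 were at least 2-fold higher: the matrix proteoglycan LUM, at 2677 in hepatospheres and 1.14 in differentiated cells (at least 31.8-fold), and the collagen gene COL3A1 (at least 8.07-fold). DCN stood at 0.72 or more, and COL1A1 at 0.70 on its brightest probe set and between -0.37 and 1.99 over all 3. LUM, COL3A1 and DCN reached the floor in hepatospheres only, which fixes their direction, and the median of the 4, 1.87, was 0.86 with the floor at the 40th percentile. The summed signal of these 10 genes was 4214 in hepatospheres and 451 in differentiated cells, and their part in the THY1 readings was not tested.

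EPCAM, an epithelial adhesion molecule, had 1 probe set, which read 39.7 in hepatospheres and 28.0 in differentiated cells. Both values lie below the floor, where signals have no reliable order, so no fold is given. Of all genes on the array, 35.4% were likewise below the floor on both arrays.

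CD24, which binds P-selectin on activated platelets and endothelium, had 6 probe sets, all above the floor on both arrays and all at least 2-fold higher in hepatospheres. The brightest, 216379_x_at, read 28472 in hepatospheres and 12297 in differentiated cells, 2.32-fold higher. Probe set 209771_x_at read 27102 in hepatospheres and 12511 in differentiated cells (2.17-fold higher), and 208650_s_at read 19957 in hepatospheres and 8533 in differentiated cells (2.34-fold). The largest difference was at 209772_s_at, with 12665 in hepatospheres and 3784 in differentiated cells, 3.35-fold higher. Probe set 266_s_at read 7253 in hepatospheres and 2977 in differentiated cells (2.44-fold higher), and 208651_x_at read 4430 in hepatospheres and 1947 in differentiated cells (2.27-fold). Without 209772_s_at the differences thus lay between 2.17-fold and 2.44-fold, and all 6 spanned 0.63 on the log2 scale. CD24 was 1 of 3 genes among the 473 with 5 or more measured probe sets whose probe sets were all at least 2-fold higher. All 6 names mark shared or cross-matching sequence, and CD24 has processed pseudogene copies that such probe sets may also read. Dividing each array by its median left 2 of the 6 at 2-fold, and poly(A) scaling left 0, with all 6 still above 0.

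PROM1, the marker for which many liver sphere studies sort, had 1 probe set. It read 6.85 in hepatospheres and 46.1 in differentiated cells, both below the floor, so neither a level nor a direction can be given. Its paralogue PROM2 was measured and level, at 324 in hepatospheres and 308 in differentiated cells, and both of its probe sets lay between 0.07 and 0.08 on the log2 scale.

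ANPEP, which trims amino acids from peptides outside the cell and has been tied to dormant liver cancer cells, had 3 probe sets but rests on 1. Probe set 202888_s_at read 5041 in hepatospheres and 2126 in differentiated cells, a 2.37-fold higher signal, the largest of the 6 measured markers by brightest probe set. Of all measured genes, 8.77% had a larger difference. Probe set 234458_at read 36.4 in hepatospheres and 1.68 in differentiated cells, and 234576_at read 7.66 in hepatospheres and 4.76 in differentiated cells, all below the floor, so the called value has no second probe set beside it. Of 9 other peptidases with a probe set, not all of them on the cell surface, 5 were measured. On their brightest probe sets 0 were 2-fold apart (median -0.15). Those on the surface were DPP4 at -0.64 and GGT1 at -0.19, the latter near the floor at 99.8 in hepatospheres and 114 in differentiated cells. ERAP1 at 0.15, NPEPPS at -0.15 and ERAP2 at -0.01 act mainly inside the cell, so the median does not describe surface peptidases alone. Dimmer probe sets of DPP4 and NPEPPS stood at -1.07 and -1.01. ENPEP, the related aminopeptidase A, was below the floor.

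**Figure D2:**
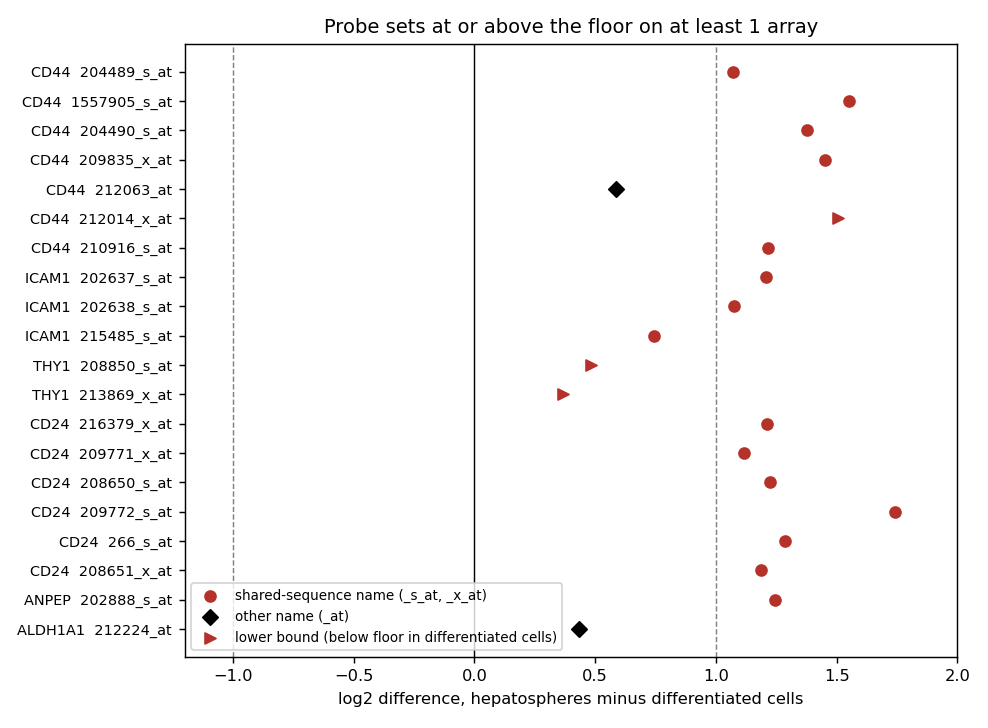
Log2 difference, hepatospheres minus differentiated cells, for the 20 marker probe sets that reached the floor on either array, with triangles for lower bounds, black diamonds for names without a shared-sequence mark and dashed lines at 2-fold. All 20 lie above 0 and 15 at or above 2-fold with the deposited scaling. The floor fixes the direction of 3 of them, the lower bounds. Under poly(A) scaling 15 of 19 lie above 0 and 0 reach 2-fold.

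LGR5 had 2 probe sets, and both were below the floor on both arrays. Probe set 210393_at read 38.1 in hepatospheres and 48.0 in differentiated cells, and 213880_at read 26.6 in hepatospheres and 30.6 in differentiated cells. Among Wnt target and R-spondin receptor genes, 7 of 15 with a probe set were measured, 0 were 2-fold higher and 1 was lower (median -0.63). The lower one was LGR4, the paralogous receptor, at 1171 in hepatospheres and 2456 in differentiated cells, 2.10-fold lower. The Wnt target ASCL2 stood at -0.80, the R-spondin-linked ligases ZNRF3 and RNF43 at -0.70 and -0.51, and AXIN2 at -0.63 on its brighter probe set and 0.13 on the other. Of the 7, LEF1 alone lay above 0, at 0.33, and its other probe set stood at -0.61. All 4 R-spondin genes were below the floor.

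ALDH1A1 had 1 probe set, 212224_at, which read 23234 in hepatospheres and 17198 in differentiated cells. It was 1.35-fold higher, and 29.4% of measured genes had a larger difference. Under poly(A) scaling it was lower, at -0.61. Among 19 related dehydrogenase and retinoid genes 16 were measured. On their brightest probe sets 3 were at least 2-fold higher and 0 lower (median 0.48). The higher ones were ALDH3A1 (at least 3.28-fold), ALDH18A1, which makes a proline precursor (2.81-fold), and ALDH4A1, which breaks proline down (2.09-fold). ALDH3A1 reached the floor in hepatospheres only, which fixes its direction, and the other ALDH4A1 probe set stood at 0.64. Some genes within 2-fold had a split: ALDH1B1 stood at 0.02 on its brightest probe set and 2.09 on the other, ALDH1L1 at 0.44 and -0.72. The retinaldehyde reductase gene DHRS3 stood at 0.82 and ALDH2, which clears acetaldehyde, at 0.04. ALDH1A2 and ALDH1A3, the isoenzymes that make retinoic acid beside ALDH1A1, were both below the floor.

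Although BMI1 itself has no value here, 13 genes of the polycomb repressive complex 1 family were measured. These count BMI1 paralogues from variant complexes and the BMI1 target CDKN2A, so not all are partners of BMI1. Of the 13, 1 was at least 2-fold higher and 2 lower (median 0.17). RNF2 had no probe set with 1 symbol. CBX7, which reads the polycomb histone mark, was 3.20-fold higher. PCGF6 and PCGF5, which take the place of BMI1 in variant complexes, were 2.43-fold and 2.39-fold lower, with 3 of 4 PCGF5 probe sets below 0 and 1 above. CBX2 stood at -0.76 on 1 probe set and 1.05 on the other, and CDKN2A, the locus BMI1 is best known to repress, at -0.21.

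Partners of the adhesion markers were mixed. Of 10 measured CD44 ligands, linkers and related genes, 1 was higher and 1 lower by 2-fold (median -0.24). The CD44 ligand SPP1 (osteopontin) was 3.89-fold higher, at 471 in hepatospheres and 121 in differentiated cells. Another hyaluronan receptor gene, HMMR, was 3.84-fold lower, and the linkers RDX and NF2 stood at -0.62 and -0.54. ESRP1, which steers CD44 splicing towards its epithelial forms, was below the floor. Of 9 measured genes around ICAM1, 1 was higher and 0 lower (median 0.47). That one was the integrin ligand VCAM1, at least 2.91-fold higher, and ICAM5 stood at 0.64 or more. VCAM1 and ICAM5 reached the floor in hepatospheres only, which fixes their direction. The NF-kB subunit RELA stood at 0.91 and the NF-kB feedback genes TNFAIP3 and NFKBIA at 0.54 and 0.47. The NF-kB subunit NFKB1 stood at -0.38. Of the leukocyte integrin genes, ITGAL stood at -0.28 on its brightest probe set and 0.48 on the other. ITGAM stood at -0.54 or lower and reached the floor in differentiated cells only, which fixes its direction. ICAM2 was below the floor. Of 7 measured EPCAM partners, 2 were higher and 1 lower (median 0.54). FHL2, which carries the EPCAM signal to the nucleus, was at least 11.6-fold higher, CLDN4 9.90-fold higher and CLDN1 2.20-fold lower, with PSEN2 at -0.63. FHL2 reached the floor in hepatospheres only, which fixes its direction.

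Of 13 other published markers of liver tumour-initiating cells with a probe set, 11 were measured, with 4 higher and 1 lower by 2-fold (median 0.77). CD47 was 5.15-fold higher on its brightest probe set (0.18 to 2.48 on the log2 scale over 5), NES 4.44-fold, SOX9 4.24-fold and ABCG2 2.88-fold. CACNA2D1 was at least 3.09-fold lower and reached the floor in differentiated cells only, which fixes its direction. The differences of the 6 measured surface and enzyme markers thus spanned 0.37 to 1.25 on the log2 scale, inside the range of -1.63 to 2.36 of these others. The medians of all companion and cell type lists apart from the fibroblast markers were below 0 under poly(A) scaling.

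**Figure D3:**
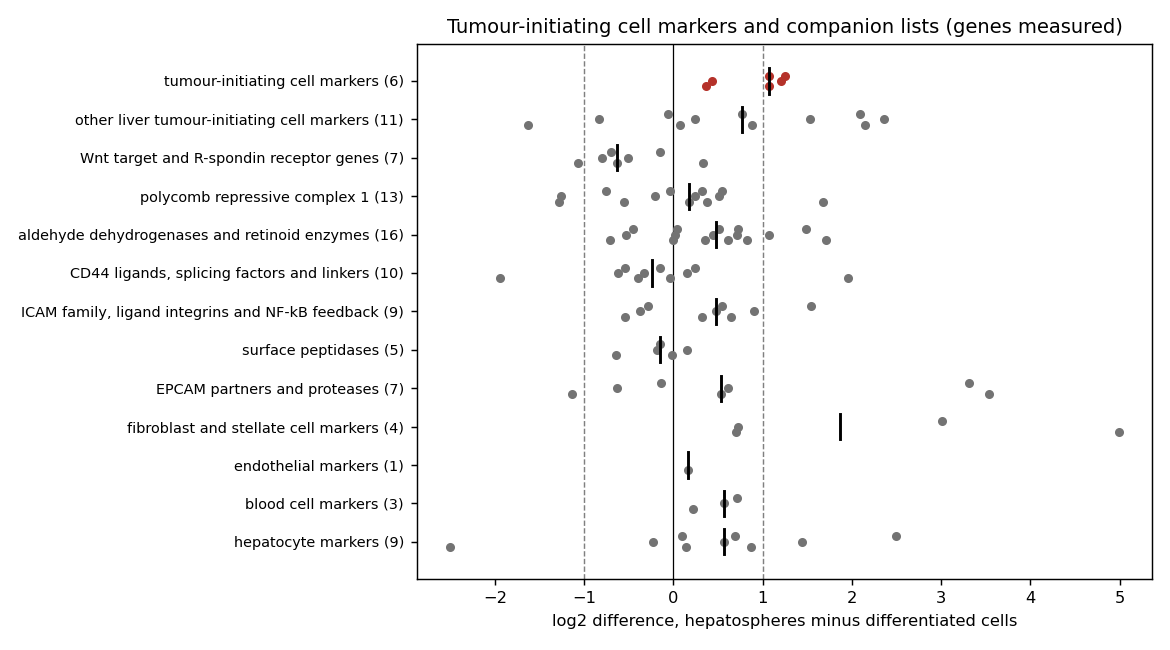
Log2 difference, hepatospheres minus differentiated cells, of each measured gene (points) with the list median (bar), for the tumour-initiating cell markers in red and 12 companion lists in grey, with the number measured in brackets and dashed lines at 2-fold. The 6 markers lie between 0.37 and 1.25 with the deposited scaling, and ALDH1A1 and THY1 fall below 0 under poly(A) scaling.

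As a check of the cell line, all 9 hepatocyte markers with a probe set were above the floor on both arrays, with ALB at 27887 in hepatospheres and 10276 in differentiated cells (2.71-fold higher), TTR 5.62-fold higher, TF at 0.87 and AFP 5.66-fold lower (median 0.57). Of 8 endothelial markers 7 were below the floor. PECAM1 was well above it, at 3787 in hepatospheres and 3388 in differentiated cells. Its difference was 0.16 on that brightest probe set and between -0.04 and 2.04 over all 4. Of 9 blood cell markers 6 were below the floor, including PTPRC, and LYZ, HBB and CSF1R stood at 0.72 (2.83 on another LYZ probe set), 0.57 and at least 0.22. LYZ was well above the floor, at 10454.5 in hepatospheres and 6364 in differentiated cells. CSF1R reached the floor in hepatospheres only, which fixes its direction.

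**Figure D4:**
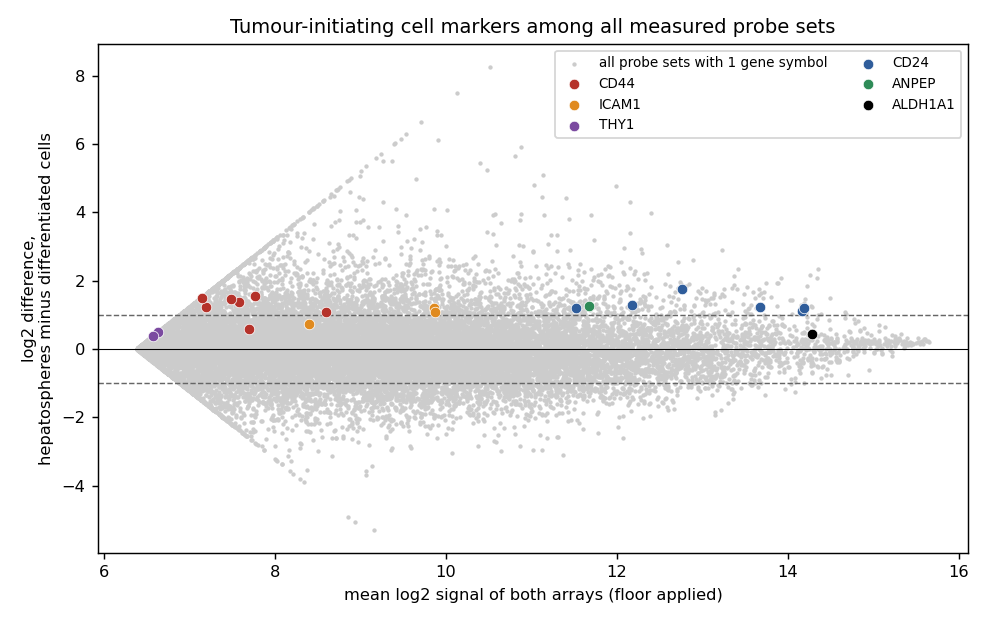
Log2 difference, hepatospheres minus differentiated cells, against mean log2 signal for all 23825 measured probe sets with 1 gene symbol (grey) and those of the 6 measured markers (coloured), with dashed lines at 2-fold. The 20 marker points lie inside the grey cloud, all above 0 with the deposited scaling. The floor fixes the direction of 3 of them, which reached it in hepatospheres only. Of all probe sets, 51.2% lie above 0, 11.6% are at least 2-fold higher and 9.59% at least 2-fold lower. Under poly(A) scaling 4 of 19 marker points fall below 0.

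Which probe set stands for a gene changed the sizes too. Averaging a gene's measured probe sets, CD44 stood at 1.25 instead of 1.07 and CD24 at 1.29 instead of 1.21. Of the 20 measured marker probe sets, 18 carried a shared-sequence name. Of these 15, mostly of CD24 and CD44, were at least 2-fold higher, beside 10.8% of all such probe sets. The 2 without such a name, 212063_at of CD44 and 212224_at of ALDH1A1, were both within 2-fold, beside 12.1% of all such probe sets that were 2-fold higher. CD24, ICAM1, THY1 and ANPEP have no measured probe set of the second kind, so whether shared sequence contributes to their readings was not tested.

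**Figure D5:**
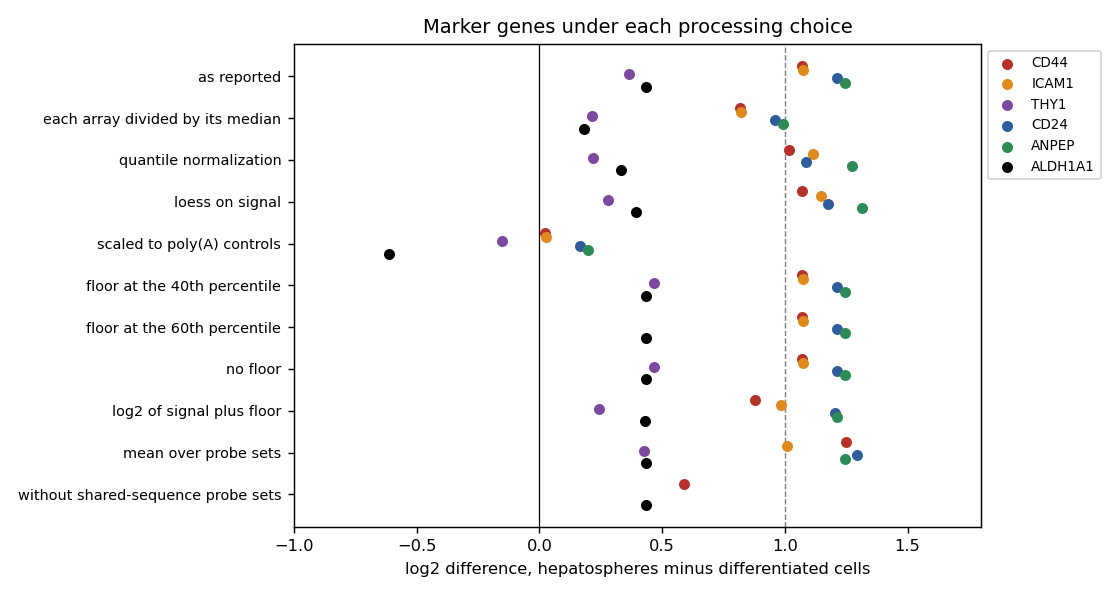
Log2 difference, hepatospheres minus differentiated cells, of the 6 measured markers under the deposited processing and 10 alternatives, with the 2-fold line dashed. CD24, ANPEP, ICAM1 and CD44 sit near the line, drop under it when each array is divided by its median, and approach 0 under scaling to poly(A) controls, where ALDH1A1 and THY1 turn below 0.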

How the data were processed

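Trizol extracts of total RNA from 2 PLC/PRF/5 cultures were biotin-labelled, per the labels' protocols, and groups follow the labels' source names. The values deposited by the authors are linear intensities, 1 for each probe set, from MAS5 per the submitters' processing notes. The MAS5 version and target are not stated in what was used here. The 2% trimmed mean was 500.1 on both arrays, so the arrays were scaled globally before deposit. With 1 array per group there is no replicate, and precision is limited by that number.

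Of 54675 probe sets, 62 are controls, 41091 carry 1 gene symbol in GEO's array annotation, 1801 carry several and were not named, and 11721 are unnamed here. A RefSeq table of assembly GRCh38.p14 updated symbols. The floor was the higher 50th percentile of signal, set before log2. Each gene was read from its brightest probe set, by mean log2 signal, and called at 2-fold. The markers, 8 companion lists and 4 cell type lists, and the rule for named genes (every marker, up to 4 genes with the largest differences per list, and 17 genes named in any case) were chosen with earlier results of these data known. RNF43, LEF1, ERAP2, ALDH1A2, ALDH1B1, ALDH1L1 and the unmeasured fibroblast and blood cell markers were named after their values were seen.

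Alternatives were median, quantile, loess (span 0.3) and poly(A) control scaling, a lower (40th percentile), a higher (60th) and no floor, adding the floor before log2, averaging a gene's probe sets, and leaving out probe sets named as shared. The calling steps were tested on simulated data with larger changes in bright genes only. That test does not cover calls near the 2-fold line. Upstream windows came from RefSeq; THY1, EPCAM and LGR5 were not matched. Python 3.11.15, numpy 2.4.6, pandas 2.3.3, statsmodels 0.14.6 and matplotlib 3.10.9 were used.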

Additional observations from a re-analysis of the deposited data

How the results depend on the processing

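An alternative was counted as moving a gene's value when it crossed the 2-fold line, changed its sign or shifted it by more than 1.5-fold. A count moved only when it changed by more than 1.5-fold, or to or from 0. By that rule 10 called probe sets instead of 15, with log2 of signal plus floor, did not count as moved. Dividing each array by its median put CD24 at 0.96, CD44 at 0.82, ANPEP at 0.99 and ICAM1 at 0.82 on the log2 scale, with 0 marker genes and 6 marker probe sets at least 2-fold higher, instead of 4 and 15. Scaling to the poly(A) controls put CD24 at 0.16, CD44 at 0.023, THY1 at -0.15, ANPEP at 0.20, ICAM1 at 0.028 and ALDH1A1 at -0.61, with 0 genes and 0 probe sets called. In both, the construction lowers every hepatosphere signal relative to differentiated cells. With log2 of signal plus floor, which shrinks low signals, CD44 stood at 0.88 and ICAM1 at 0.99, and 2 genes were called. Without shared-sequence probe sets only 2 marker genes were measured, CD44 at 0.59 and ALDH1A1, and 0 were called. Quantile and loess scaling, the other floors, no floor and the mean over probe sets each gave 4 called genes; THY1 had no value with the floor at the 60th percentile. In 89 of 109 comparisons of a marker gene or count with an alternative, the value did not move. Some of these could not have moved, since another floor leaves a probe set that is well above it unchanged. Cases where an alternative left a gene without a value were not counted. The number is therefore no measure of robustness. No marker gene was 2-fold lower under any of the 10 alternatives. No paired analysis was possible because each group had 1 array, and no array could be left out. Signals near the floor (THY1, and CD44 in differentiated cells) limit what can be read from those probe sets.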
